A study of Mus musculus with 16 samples.

Results

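The protein genes of the cytosolic ribosome were described in mouse mammary tumors with and without a gene trap in *Resf1*. Members were taken by symbol: Rpl or Rps followed by a number and an optional letter, *Rplp0* to *Rplp2*, and *Rpsa*, with symbols of pseudogenes marked -ps left out. This gave 89 of the 23609 genes in the table. Of these, 77 are the core genes, 46 for the large and 31 for the small subunit. Another 7 are paralogs of a core gene (*Rpl3l*, *Rpl7l1*, *Rpl22l1*, *Rpl36al*, *Rpl39l*, *Rps4l* and *Rps27l*). The remaining 5 match the symbol rule but are annotated as processed pseudogenes (*Rpl6l*, *Rpl32l*, *Rps12l1*, *Rps3a2* and *Rps3a3*) and are called processed copies here.

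All animals carried the MMTV-PyMT transgene, in which the MMTV promoter drives polyoma middle T antigen in mammary epithelium and induces tumors. The wildtype group is littermates with intact *Resf1*. The gene trap group is heterozygous (*Resf1* +/-) for a lentiviral insertion in the first exon of *Resf1* that makes an EGFP-cre fusion and truncates the *Resf1* message. Gene trap mice of C57BL/6 background were crossed to FVB/MMTV-PyMT, so the trap was present in every tissue of the animal, stroma included. The animals' ages are not given in the sources used here. Total RNA of whole primary tumors was sequenced. The labels list 16 tumors, of which 5 wildtype and 5 gene trap tumors could be matched to values.

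A ribosome joins a small subunit, which decodes the mRNA, to a large subunit, which forms the peptide bond and from which the chain leaves through an exit tunnel. Each subunit needs most of its proteins in equal number, and the mRNAs of ribosomal proteins are among the most abundant in a cell. They usually begin with an oligopyrimidine tract, the TOP motif, through which mTOR signaling adjusts their translation. The genes have also left many reverse-transcribed copies in mammalian genomes, most of them pseudogenes, so a read from a ribosomal protein mRNA can match more than 1 gene.

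The start of such an mRNA is shown for 8 core genes, chosen as the 4 large and 4 small subunit genes with the longest pyrimidine run from an annotated start. Each line gives 10 bases before the start and 20 after it, from RefSeq (build GRCm38.p6), 5′ to 3′, with the run in capitals.
Rpl15: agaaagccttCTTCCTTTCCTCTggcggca
Rpl35: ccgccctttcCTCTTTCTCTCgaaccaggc
Rpl28: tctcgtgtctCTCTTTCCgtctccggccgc
Rpl35a: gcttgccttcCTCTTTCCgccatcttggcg
Rps10: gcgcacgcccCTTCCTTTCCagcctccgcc
Rps18: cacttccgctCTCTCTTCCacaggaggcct
Rps6: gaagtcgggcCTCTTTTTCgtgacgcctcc
Rps15a: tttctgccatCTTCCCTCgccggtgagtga
The windows lie at chr14:18270967-18270996 (*Rpl15*, minus strand), chr2:39005112-39005141 (*Rpl35*, minus strand), chr7:4792955-4792984 (*Rpl28*, plus strand), chr16:33056472-33056501 (*Rpl35a*, plus strand), chr17:27635225-27635254 (*Rps10*, minus strand), chr17:33955646-33955675 (*Rps18*, minus strand), chr4:86857348-86857377 (*Rps6*, minus strand) and chr7:118116128-118116157 (*Rps15a*, minus strand). A C at the start followed by an unbroken run of C or T of at least 5 bases in all was present in 14 of the 76 windows of members (18.4%) and in 809 of the 32775 windows of other genes (2.5%). Windows of 300 bases, from 250 before to 50 after the start, were found for 64 of the 89 members. Some genes have several windows. The letters CCGGAAG, on either strand, were in 27 of 76 windows of members (35.5%) against 8.8% of other windows, and CCATCTT was in 12 (15.8%) against 6.3%. TATAAA was in 8 (10.5%) against 13.6%. No letters of these motifs contain another. These are matches of letters, and binding was not measured.

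Among the core genes the levels were high and narrowly spread. Normalized values were deposited by the authors, so depth is unknown, and the order of the most abundant genes is given per kilobase of transcript. By this measure the most abundant large subunit genes were *Rpl41* (48570 per kilobase), *Rplp1* (46100) and *Rpl32* (41850). In the small subunit they were *Rps15* (35120), *Rps14* (34020) and *Rps9* (32670). This order is of the genes' own values, without their sequence copies, and it depends on how reads were divided between them. For 42 core genes the copies held over 50% of the summed value of gene and copies, by the median of the 9 tumors other than gene trap replicate 2. The members together held between 2.06% and 2.53% of each tumor's total value. Over the 9 tumors other than gene trap replicate 2, the median SD of the log2 value was 0.12 for core genes and 0.21 for all genes tested. It was as narrow in like sets, so it is not particular to the core genes. Mitochondrial ribosomal protein genes and chaperones of ribosomal proteins had 0.12, other TOP mRNAs 0.11 and initiation factors 0.1. Among the members the smallest SD, 0.06, was shared by *Rps18*, of the small subunit head, and by the copies *Rps3a2* and *Rps3a3*. The largest were those of the rare paralogs *Rpl3l* (1.05), *Rpl39l* (0.69) and *Rps4l* (0.44).

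In 1 tumor, gene trap replicate 2, values differed from the rest across the table. Among the 21034 genes tested, those whose mean reached 10, 22.4% were above every other tumor in it and 21.8% below every other tumor. In each of the other tumors these shares were between 6.51% and 11.7%. Its column total was 42153600 against 31995100 to 37121400 in the others, and its 20 highest genes held 36.6% of the total against 21.2% to 29.0%. Comparisons between the groups are therefore given with and without it, or with the value of every tumor. *Resf1* itself was 4215.5, 4397.0, 3880.7, 4487.2 and 3517.2 in wildtype tumors and 4029.2, 3065.6, 3686.2, 3392.3 and 3408.9 in gene trap tumors, and the groups overlap. The log2 fold change was -0.22 (SE 0.09, unadjusted p = 0.0313 in limma, adjusted p = 0.9997), and the exact two-sided permutation p was 0.0635. Without gene trap replicate 2 it was -0.17 (unadjusted p = 0.0684 in limma). The unadjusted p was also over 0.05, at 0.059 to 0.0781 by limma, when wildtype replicate 1, 2 or 4 or gene trap replicate 4 or 5 was left out. The 13 markers of mammary epithelium, such as *Epcam* and *Krt8*, summed to between 130000 and 165200 in every tumor, and in gene trap replicate 2 to 162200.

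**Figure D1:**
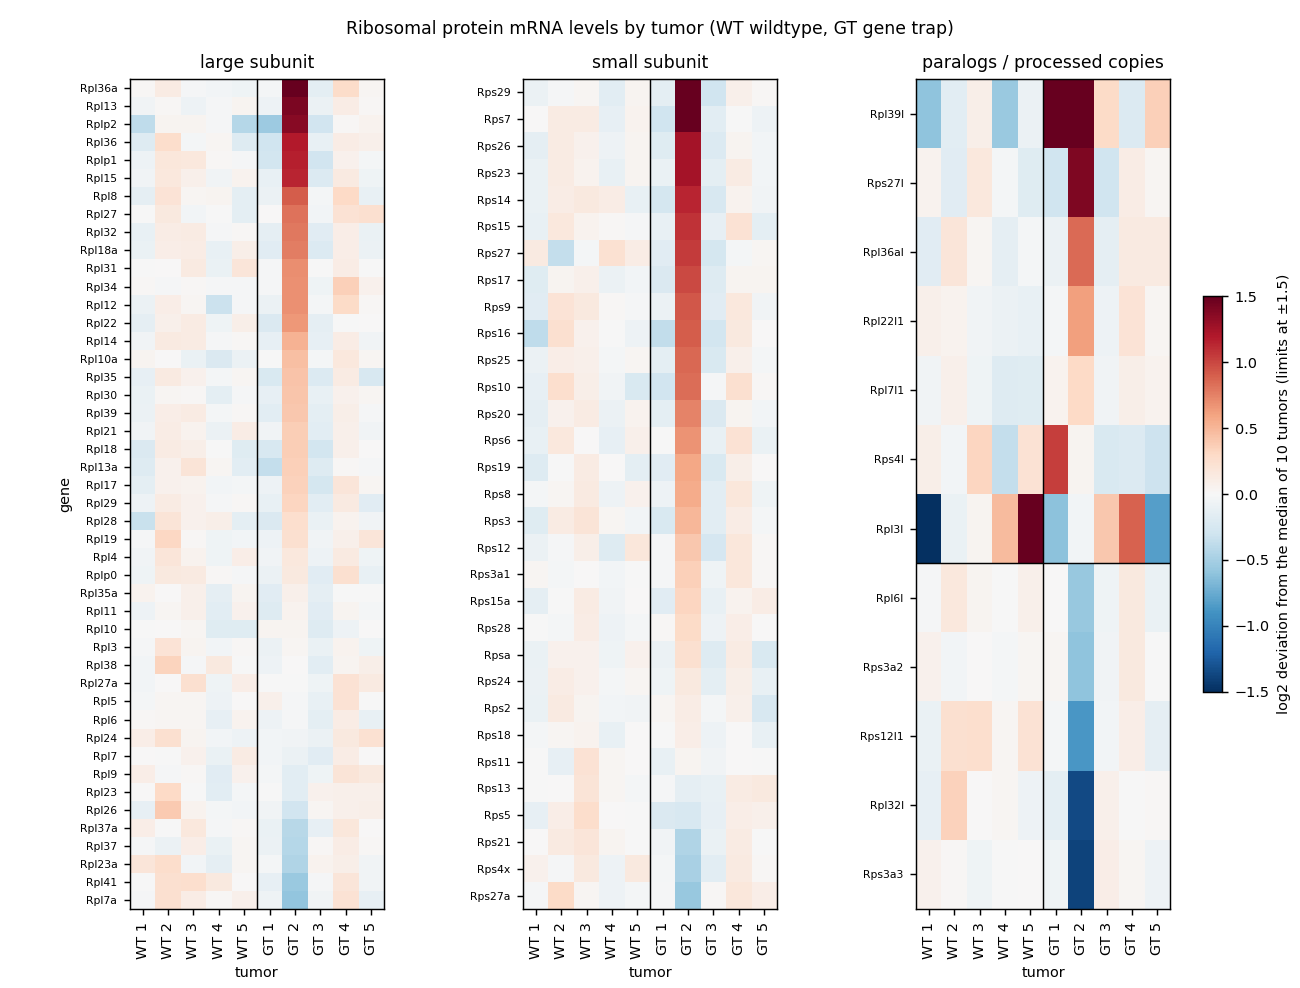
Log2 deviation of each gene (row) from its median over 10 tumors, by tumor (column; WT wildtype, GT gene trap), for large subunit genes, small subunit genes, and paralogs and processed copies; colors are limited to ±1.5. Most rows are pale outside the column of gene trap replicate 2, where 55 of 89 members lie above and 16 below all other tumors, and the 5 processed copies are all low.

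Gene trap and wildtype tumors were compared to ask whether the ribosomal protein mRNAs differ with *Resf1* dosage. None of the 89 members passed an adjusted p under 0.05 in limma, and neither did any of the 21034 genes tested (0.0%). At an unadjusted p under 0.05 there were 479 of all genes (2.28%) and, of the members, *Rpl39l* alone. That is not counted as a result, since *Rpl39l* passed the filter on the mean only through gene trap replicate 2, where it is high. Without gene trap replicate 2 there were 0 of 88 members, beside 398 of 21035 genes (1.89%). The count of members was also 0 without wildtype replicate 3, 4 or 5 or gene trap replicate 1, where 1.46% to 2.16% of all genes were under 0.05. Without gene trap replicate 3 it was 5 of 89 (5.62%, beside 2.91% of all genes), and without gene trap replicate 4 it was 5 of 89 (5.62%, beside 3.28%). *Rpl39l* is 1 of the 5 in both. All 89 members passed the filter on the mean when no tumor was left out.

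The direction of the core genes turned with that 1 tumor. With all 10 tumors the median log2 fold change of the core genes was 0.03, with 48 of 77 higher in gene trap tumors. Without gene trap replicate 2 it was -0.05, with 58 of 77 lower. Over all genes tested the median was 0.00 both times. Of the 46 large subunit genes, 27 were higher with all tumors (median 0.02) and 31 were lower without the tumor (median -0.05). Of the 31 small subunit genes, 21 were higher (median 0.07) and 27 were lower without it (median -0.06). The 5 processed copies were all lower with all tumors (median -0.28), and 4 were lower without the tumor, at a median of -0.05. The range of the core genes also narrowed, from between -0.24 and 0.43 to between -0.18 and 0.11.

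**Figure D2:**
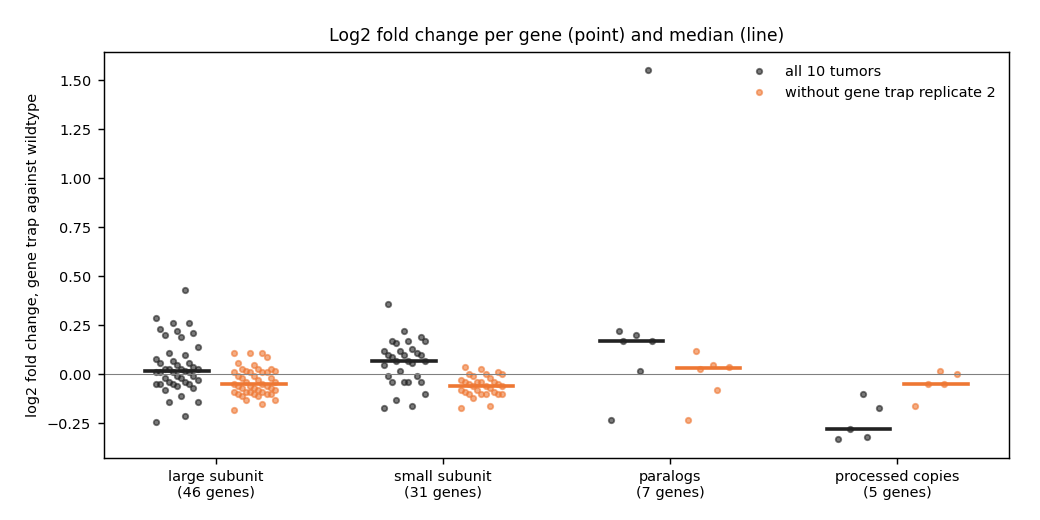
Log2 fold change of gene trap against wildtype tumors (vertical axis) for each gene (point) in 4 classes, with the class median as a line, from all 10 tumors (black) and without gene trap replicate 2 (orange). The medians of large and small subunit genes move from 0.02 and 0.07 to -0.05 and -0.06, and that of the processed copies from -0.28 to -0.05; *Rpl39l*, at 1.55, has no orange point because it then falls under the filter.

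Members with the smallest p were picked separately among those higher and those lower in gene trap tumors, so both directions appear by choice. *Rpl27*, which was higher and is described below, had a smaller unadjusted p (0.0953 in limma) than *Rpl7a*, which is listed here. *Rpl7l1*, a nucleolar paralog of *Rpl7*, was 3601.8, 3918.7, 3553.9, 3262.3 and 3289.6 in wildtype tumors and 3850.2, 4576.9, 3603.1, 3971.9 and 3858.9 in gene trap tumors. Its groups overlap, and the log2 fold change was 0.17 (SE 0.08, unadjusted p = 0.0529). *Rpl10a*, the protein of the L1 stalk of the large subunit, averaged 3355.6 ± 234.6 (SD, n = 5) where *Resf1* was wildtype and 3850.9 ± 567.0 (SD, n = 5) where it was trapped, a log2 fold change of 0.19 (SE 0.10, unadjusted p = 0.0721). On the lower side were the copy *Rps12l1* (log2 fold change -0.33, SE 0.16, unadjusted p = 0.0651), *Rpl41*, the shortest ribosomal protein (-0.24, SE 0.12, unadjusted p = 0.0740), and *Rpl7a* (-0.21, SE 0.12, unadjusted p = 0.119). The adjusted p of each was 0.9997. In gene trap replicate 2 all 5 lay outside the other 9 tumors, *Rpl7l1* and *Rpl10a* above and the others below. Without that tumor the log2 fold changes were 0.12, 0.11, -0.16, -0.13 and -0.09 in the same order. Over 20 alternative settings that of *Rpl10a* lay between -0.1 and 0.23, with 2 settings of opposite sign, and between 0.11 and 0.23 with each tumor left out. That of *Rpl41* lay between -0.32 and 0.06, with 1 setting of opposite sign. *Rpl7l1*, *Rps12l1* and *Rpl7a* kept their direction. With the sequence copies described below added, *Rpl10a* and *Rpl41* had log2 deviations of -0.31 and 0.87 in gene trap replicate 2, against 0.46 and -0.57 alone. *Rpl7l1*, *Rps12l1* and *Rpl7a* kept their sign there, at 0.32, -0.97 and -0.33. Copies held 81.0% of the *Rpl10a* family value by the median of the other 9.

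*Rpl22* and *Rpl27* were examined further in the paper, in other systems. There RPL22 protein was lower in *Resf1* knockdown cells, and gene set analysis gave suppressed ribosomal subunit transcripts in knockdown cell lines. Human *RPL27* was studied for its association with RESF1. The values given here are of mRNA in whole mouse tumors, a different measure. *Rpl22*, a large subunit protein that mice can live without, was 7932.2, 9168.5, 9506.0, 8325.7 and 9249.6 in wildtype tumors. In gene trap tumors it was 7534.9, 13716.7, 7928.4, 8710.2 and 8742.7, so all but replicate 2 lay near or within the wildtype range. The log2 fold change was 0.05 (SE 0.14) and, without that tumor, -0.10. *Rpl27*, of the large subunit, was 1084.0, 1206.4, 1054.5, 1086.0 and 979.1 in wildtype tumors and 1089.2, 1914.7, 1060.6, 1260.5 and 1281.5 in gene trap tumors. The groups overlap, with a log2 fold change of 0.26 (SE 0.14, unadjusted p = 0.0953 in limma), or 0.11 without replicate 2. For *Rpl27* most of the family's value lay in 8 pseudogene copies, which are described with the copies.

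The subunit totals showed the same tumor by tumor pattern. The summed value of the 46 large subunit genes was 385061, 448163, 433239, 398292 and 404658 in wildtype tumors and 372808, 534534, 371805, 443167 and 396839 in gene trap tumors. For the 31 small subunit genes the sums were 305824, 346043, 351636, 319709 and 327963 in wildtype tumors and 301128, 492510, 293197, 353000 and 315771 in gene trap tumors. In both subunits gene trap replicates 1 and 3 were the lowest tumors and replicate 2 the highest, so the gene trap tumors spanned the wildtype range. In several tumors most core genes lay on the same side of the median. In gene trap replicate 4, 72 of 77 were above the median of the other 9 tumors, and in wildtype replicates 2 and 3, 63 and 68 were. In gene trap replicates 1 and 3, 5 of 77 were above it. In wildtype replicate 5 and gene trap replicate 5 the genes were divided, with 41 and 37 above it.

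The large to small ratio of these sums was steady outside gene trap replicate 2. Wildtype tumors had 1.25 ± 0.0288 (SD, n = 5), and the other 4 gene trap tumors had 1.26 ± 0.0126 (SD, n = 4). In gene trap replicate 2 it was 1.09. The large subunit sum there was 1.34 times and the small subunit sum 1.54 times the median of the other 9, while the column total was 1.23 times. These sums leave out the sequence copies. Copies held 52.6% to 54.0% of the summed value of core genes and copies in the other 9 tumors. In gene trap replicate 2 they held 47.2%, and their part in the ratio was not tested. Since the sums are dominated by the highest genes, the counts are given as well. Of the large subunit genes 26 of 46 were above all other tumors and 6 below, and of the small subunit genes 24 of 31 were above and 5 below. Over all genes tested 22.4% were above and 21.8% below in that tumor. The median log2 deviation from the other 9 was 0.36 in the large and 0.58 in the small subunit.

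**Figure D3:**
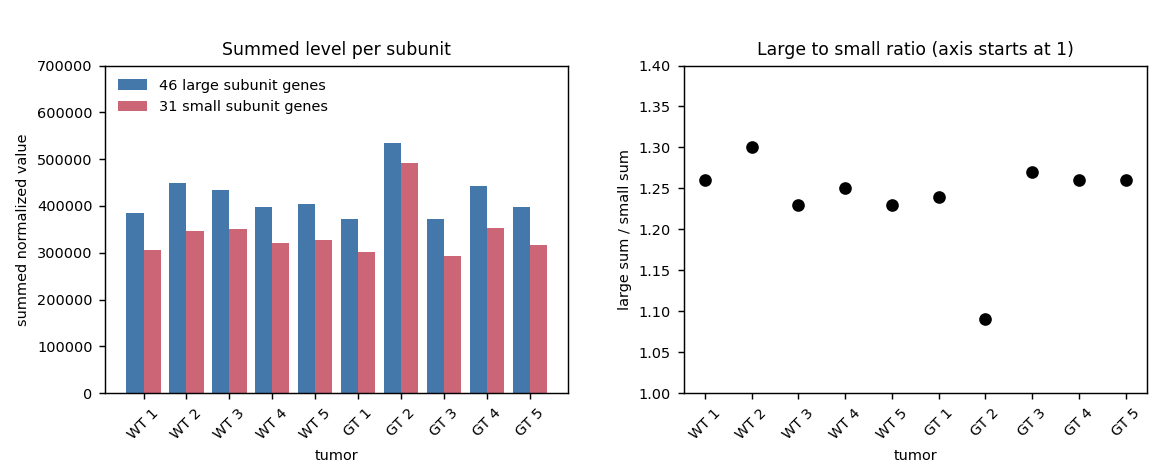
Left, summed normalized value of the 46 large (blue) and 31 small (red) subunit core genes in each tumor; right, large sum over small sum in each tumor, on an axis that starts at 1. Gene trap replicate 2 is the highest tumor for both sums and the lowest for the ratio, 1.09 against 1.23 to 1.30.

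Within gene trap replicate 2 the core genes did not move as a block. *Rpl36a* (2732.2 against 604.2 to 808.5 in the other 9 tumors) and *Rps29* (26287.8 against 5454.2 to 7058.3) had the highest log2 deviations of the core genes, 2.05 and 1.99. *Rps29*, with a zinc-binding site, sits in the head of the small subunit. *Rps7* followed at 1.70 (3707.5 against 935.3 to 1256.3). The abundant *Rplp1*, *Rpl32*, *Rps15*, *Rps14* and *Rps9* had log2 deviations of 1.19, 0.81, 1.10, 1.20 and 0.95. At the other end were *Rpl7a* (3829.6 against 5328.5 to 6816.1), *Rps27a*, which encodes ubiquitin fused to a ribosomal protein (2721.5 against 3813.2 to 4894.1), and *Rpl41* (14193.5 against 19185.9 to 24935.8). Their log2 deviations were -0.62, -0.58 and -0.57. With the sequence copies described below added, *Rpl36a*, *Rps29* and *Rps7* had 0.76, 1.8 and 0.65, and *Rpl7a*, *Rps27a* and *Rpl41* had -0.33, -0.86 and 0.87. *Rps7* and *Rps27a* are named here after their values were seen. Another 16 core genes, among them *Rpl3*, *Rpl5*, *Rpl7*, *Rpl11* and *Rplp0*, stayed within the range of the other tumors.

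Values by tumor follow for *Rps29* and *Rpl36a*, chosen for their deviation in gene trap replicate 2. *Rps18*, chosen for its small SD, and *Rps4x* follow them. *Rps29* was 6305.7, 6638.0, 6869.9, 6037.0 and 6891.2 in wildtype tumors and 6084.5, 5454.2, 7058.3 and 6799.0 in gene trap tumors other than replicate 2. *Rpl36a* was 677.3, 727.4, 658.2, 648.4 and 638.8 in wildtype tumors and 654.1, 604.2, 808.5 and 678.7 in those gene trap tumors. For both genes the groups overlap once replicate 2 is left out, with log2 fold changes of -0.05 and 0.03. *Rps18*, the steadiest core gene, was 7193.8, 7537.4, 7652.4, 6815.2 and 7364.2 in wildtype tumors and 7353.0, 7893.9, 6954.0, 7360.5 and 6811.8 in all gene trap tumors. Here replicate 2 was again the highest tumor, but by a log2 deviation of only 0.10. *Rps4x*, the X-linked partner of *Rps4l*, was 23068.8, 21778.7, 24274.9, 20900.4 and 24300.3 in wildtype tumors and 21496.0, 15737.3, 19664.3, 24176.0 and 22260.1 in gene trap tumors, with replicate 2 the lowest of all.

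Short protein-coding genes in general were high in this tumor. Among genes whose mean reached 100, 63 genes outside the members with transcripts of up to 450 bases had a median log2 deviation of 0.76, and 137 genes of over 450 to 600 bases had 0.75. The medians of the core genes in these bins were 0.68 (8 genes) and 0.68 (20 genes). In the bins of over 600 to 900 and over 900 to 1500 bases other genes had 0.42 and 0.22, and core genes 0.40 (26 genes) and 0.16 (17 genes). The longer bins hold few core genes: from over 1500 to 3000 bases 5 core genes had 0.21 and other genes 0.06, and over 3000 bases 1 core gene had 0.78 and other genes -0.05. Up to 1500 bases the deviation of the core genes was close to that of other genes of like length. Among the core genes alone, Spearman's rho of length and deviation was -0.18 (77 genes of 1 tumor, which share the library). The part of transcript length in it was not tested. Mitochondrial ribosomal protein genes, whose products form a separate ribosome, were above all other tumors in 61 of 77 cases, beside 22.4% of all genes tested. Their median log2 deviation was 0.45.

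The P stalk and the 5S particle are subcomplexes of the large subunit, and their genes are given one by one. The P stalk of *Rplp0*, *Rplp1* and *Rplp2* recruits the elongation factors. *Rplp1* was 19670.7, 23278.0, 23112.6, 20989.0 and 20398.1 in wildtype tumors and 17145.4, 46563.9, 16996.6, 21569.1 and 20338.8 in gene trap tumors. *Rplp2* was 3531.4, 4740.1, 4734.6, 4549.5 and 3426.9 in wildtype tumors and 3147.4, 11844.2, 3756.0, 4634.0 and 4761.3 in gene trap tumors. Both were more than 2 times higher in gene trap replicate 2 than the median of the others (2.28 and 2.60 times), while *Rplp0*, the scaffold that they bind, was 1.12 times as high and within range. *Rpl5* and *Rpl11*, which bind the 5S rRNA and can inhibit MDM2, had log2 fold changes between groups of 0.04 and -0.05 (SE 0.07 and 0.08), or 0.05 and -0.07 without gene trap replicate 2. In gene trap replicate 2 they were 0.984 and 1.06 times the median of the others. The 2 high genes, *Rplp1* and *Rplp2*, have transcripts of 499 and 421 bases. Those of *Rplp0*, *Rpl5* and *Rpl11* have 1358, 2045 and 833 bases, and the part of length was not tested. By the median of the 9 tumors, copies held 95.5% and 88.8% of the family values of *Rpl5* and *Rpl11*. For *Rplp0*, *Rplp1* and *Rplp2* they held 22.3%, 14.9% and 42.0%.

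The exit tunnel list and the Diamond-Blackfan list, which overlap each other and the core genes, gave further counts. Of 9 exit tunnel genes, 4 were higher with all tumors and 0 without gene trap replicate 2, when 9 were lower (median -0.04). Of 16 genes mutated in Diamond-Blackfan anemia, a failure of red cell production, 12 were higher with all tumors (median 0.11) and 12 were lower without that tumor (median -0.05). In it 12 of the 16 were above all others, beside 22.4% of all genes tested. The summed value of the 16 was 176400 there against 97150 to 117600. No gene of either list reached an unadjusted p of 0.05.

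The 5 processed copies were below all other tumors in gene trap replicate 2, while 3 of their 4 parent genes were above. A processed copy comes from a reverse-transcribed mRNA and has nearly the coding sequence of its parent, so a short read is often assigned between them by few bases. The stretches of parent and copies that hold the most differences are printed from GENCODE transcripts. Capitals mark positions at which any of the sequences shown differ. The first set is bases 489 to 668 of the *Rps3a1* coding sequence.
Rps3a1: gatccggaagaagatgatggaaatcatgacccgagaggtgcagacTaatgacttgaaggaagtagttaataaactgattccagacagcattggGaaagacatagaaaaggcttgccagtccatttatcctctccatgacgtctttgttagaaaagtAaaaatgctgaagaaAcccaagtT
Rps3a2: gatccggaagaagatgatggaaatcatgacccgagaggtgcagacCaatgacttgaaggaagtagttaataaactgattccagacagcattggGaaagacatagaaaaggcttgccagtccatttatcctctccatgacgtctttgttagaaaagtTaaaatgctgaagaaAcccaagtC
Rps3a3: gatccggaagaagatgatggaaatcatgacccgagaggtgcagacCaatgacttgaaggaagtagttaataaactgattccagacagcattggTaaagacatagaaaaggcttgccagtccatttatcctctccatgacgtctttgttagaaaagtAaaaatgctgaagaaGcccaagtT
The next pair is *Rpl32* (bases 150 to 329 of its coding sequence) and *Rpl32l*.
Rpl32: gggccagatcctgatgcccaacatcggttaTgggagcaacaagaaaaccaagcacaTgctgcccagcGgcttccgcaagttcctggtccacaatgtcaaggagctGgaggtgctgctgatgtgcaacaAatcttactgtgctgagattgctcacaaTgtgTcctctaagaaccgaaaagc
Rpl32l: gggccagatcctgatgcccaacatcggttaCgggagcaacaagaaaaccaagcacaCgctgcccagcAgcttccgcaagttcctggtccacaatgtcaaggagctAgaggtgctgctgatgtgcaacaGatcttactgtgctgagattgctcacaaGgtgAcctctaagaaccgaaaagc
The last pair is the first 90 coding bases of *Rps12* and the matching bases of *Rps12l1*, which have no capitals because they are identical.
Rps12: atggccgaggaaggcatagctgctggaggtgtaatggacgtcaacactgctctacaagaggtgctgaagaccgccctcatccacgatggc
Rps12l1: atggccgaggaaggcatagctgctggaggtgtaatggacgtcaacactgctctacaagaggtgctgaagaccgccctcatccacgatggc
Over the aligned coding sequence, *Rps3a2* and *Rps3a3* matched *Rps3a1* at 99.5% and 98.9% of 792 bases, *Rpl32l* matched *Rpl32* at 97.2% of 399 bases, *Rpl6l* matched *Rpl6* at 98.7% of 871 bases, and *Rps12l1* matched *Rps12* at all 396 bases.

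*Rps3a1*, of the small subunit platform, was between 20768.9 and 24555.4 in the 9 tumors and 27843.6 in gene trap replicate 2. Its copies went the other way there. *Rps3a2* was between 10454.0 and 11976.7 in the 9 tumors and 7131.8 in gene trap replicate 2, and *Rps3a3* between 1897.5 and 2155.6 against 765.7. *Rpl32* was at 35230.6 against 18033.9 to 22232.9, and *Rpl32l* at 165.8 against 382.6 to 540.6. *Rps12* was at 3659.0 against 2326.6 to 3125.7, and *Rps12l1*, identical to it over the coding bases, at 3811.4 against 6326.0 to 8296.7. *Rpl6*, the exception, was within range at 5757.2, with *Rpl6l* at 3150.1 against 4345.0 to 5221.4. How the reads of gene trap replicate 2 were divided between parents and copies cannot be examined in a table of gene values, and the part of this division in its values was not tested.

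All copies found by sequence gave a more mixed picture. A copy was counted where its transcript matched a coding sequence at 90% identity or more over 80% or more of its length. This gave 582 copies of 74 core genes, of which 564 are annotated as pseudogenes. In the 9 tumors the copies held 52.6% to 54.0% of the summed value of core genes and copies, and in gene trap replicate 2 they held 47.2%. The summed copies of 46 of the 74 core genes were lower in that tumor than in the median of the others, and 38 of these 46 core genes were themselves higher. The copies together were not low: they summed to 918488 in that tumor against 756518 to 933586, 1.13 times the median of the other 9. The median log2 deviation was 0.38 for the core genes with copies and -0.26 for their summed copies. Gene plus copies gave 0.26, with 52 of 77 families higher against 59 of 77 core genes alone. The total of core genes and copies was 1945532 in that tumor against 1430454 to 1727792, which is 1.27 times the median of the other 9, near the 1.23 times of the column total.

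**Figure D4:**
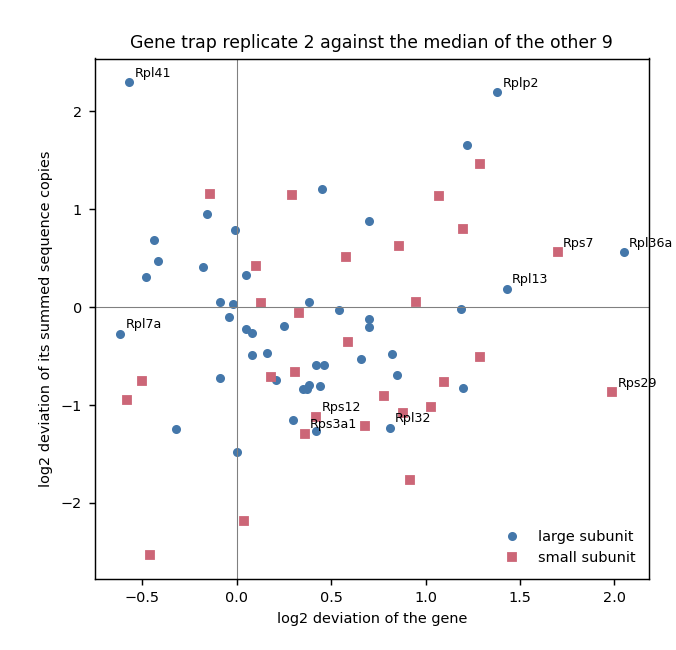
Log2 deviation of each of 74 core genes in gene trap replicate 2 from the median of the other 9 tumors (horizontal) against that of its summed sequence copies (vertical), large subunit as blue circles and small subunit as red squares. Many points lie at lower right, gene high and copies low (38 genes), and *Rpl41* is at upper left, gene low and copies high.

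For 37 of the 74 core genes the largest copy had a higher value than the gene itself in the median of the 9 tumors, on values not divided by length. The examples that follow were chosen after their values were seen. *Rps27* had a median of 167.0, while its retrogene *Rps27rt* had 14359.2. *Rps7* had 1142.7 and the transcribed pseudogene *Gm6472* had 17828.2. For *Rpl41* the low value of gene trap replicate 2 stood beside a high value of *Gm10076*, a noncoding gene with an *Rpl41* copy, at 38203.9 against 6686.5 to 8629.4. *Wdr89*, whose transcript holds a copy of *Rplp2*, was at 14746.0 against 2376.3 to 3625.1. In the *Rpl27* family the 8 pseudogenes held more than the gene, 78.6% of the family value in gene trap replicate 2, and gene plus copies was lower in gene trap replicate 2 (log2 deviation -0.28) although *Rpl27* itself was higher (0.82).

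The rare paralogs were read in the same way, each as a percent of the summed value of the paralog and its partner in a tumor. *Rpl39l* replaces *Rpl39* at the exit tunnel and is known from male germ cells. The coding sequences of both are printed whole, without the stop codon, because the pair holds the member with the largest log2 fold change. Capitals mark the 23 bases that differ.
Rpl39: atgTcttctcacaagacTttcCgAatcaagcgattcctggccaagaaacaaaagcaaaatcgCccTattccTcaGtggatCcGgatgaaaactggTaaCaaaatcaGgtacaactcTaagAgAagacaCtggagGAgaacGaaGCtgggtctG
Rpl39l: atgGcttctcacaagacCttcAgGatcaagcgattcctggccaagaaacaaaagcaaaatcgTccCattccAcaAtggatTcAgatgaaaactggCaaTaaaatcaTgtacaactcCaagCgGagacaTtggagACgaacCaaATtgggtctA
*Rpl39l* was low in wildtype tumors, at 4.5, 6.5, 7.9, 4.7 and 6.9. In gene trap tumors it was 26.4, 165.3, 9.2, 6.3 and 9.7. Gene trap replicates 1 and 2 were above all others, and replicate 4 was within the wildtype range. The log2 fold change was 1.55 (SE 0.70). Without replicate 2 the mean was under the filter, so no p is given for this gene. *Rpl39l* held 0.0919% to 0.14% of the pair in wildtype tumors and 0.565%, 2.36%, 0.195%, 0.113% and 0.19% in gene trap tumors.

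*Rpl3l*, the paralog of *Rpl3* in heart and skeletal muscle, varied most of all members. It was 5.0, 15.3, 17.0, 23.3 and 73.4 in wildtype tumors and 10.4, 16.0, 22.1, 31.3 and 8.9 in gene trap tumors. The summed value of 7 skeletal muscle markers, such as *Acta1* and *Mylpf*, was 879.1, 3097, 3474, 3766 and 13540 in the same wildtype tumors and 2168, 3591, 4636, 6127 and 2477 in the gene trap tumors. Both were lowest in wildtype replicate 1 and highest in wildtype replicate 5, and gene trap replicate 4 came next in both. The part of muscle in the *Rpl3l* value was not tested. Between the groups *Rpl3l* had a log2 fold change of -0.23 (SE 0.57), and the same value without gene trap replicate 2.

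*Rpl36al* and *Rpl36a* encode nearly the same protein from genes that match at 87.7% of 318 coding bases. The stretch of bases 10 to 129, shown because it is the densest in differences, has 20 of them in capitals.
Rpl36a: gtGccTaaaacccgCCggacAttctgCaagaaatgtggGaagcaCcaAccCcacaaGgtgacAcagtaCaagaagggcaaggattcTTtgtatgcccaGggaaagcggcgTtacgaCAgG
Rpl36al: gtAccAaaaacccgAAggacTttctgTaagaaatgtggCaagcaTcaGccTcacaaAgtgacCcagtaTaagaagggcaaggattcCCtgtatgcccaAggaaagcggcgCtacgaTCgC
*Rpl36al* held most of the value of this pair, 88.8% to 90.4% in wildtype tumors. With their copies the order was the reverse, since the *Rpl36a* family summed to between 7921.7 and 9500.4 in the 9 tumors and the *Rpl36al* family to between 5778.7 and 7237.1. In gene trap tumors it held 89.7%, 79.9%, 90.1%, 89.1% and 90.7%, so replicate 2 was below all others although *Rpl36al* itself was there at its highest value, 10856.2 against 5384.2 to 6855.2. The mean difference between the groups was -1.95 percentage points, and 0.0544 without gene trap replicate 2. Where rows with -ps symbols were added to their parents it was 2.03, a change of sign.

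The other 4 pairs overlapped between the groups. *Rpl7l1* held 8.94% to 11.3% of its pair with *Rpl7* in wildtype and 10.6% to 13.6% in gene trap tumors. *Rpl22l1*, which is known to rise when *Rpl22* is lost, held 8.18% to 10.6% in wildtype and 9.02% to 10.5% in gene trap tumors, and its log2 fold change was 0.17 (SE 0.12), or 0.05 without gene trap replicate 2. *Rps27l*, a p53 target, held 94.2% to 95.8% and 94.8% to 96.2%, beside the low value of *Rps27* given above. With their copies the order of this pair was the reverse. In the 9 tumors the *Rps27* family summed to between 13379 and 16169 and the *Rps27l* family to between 2852.1 and 3922.1. *Rps4l*, annotated as a transcribed processed pseudogene of *Rps4x* and matching it at 80.4% of aligned bases, held 0.20% to 0.278% in wildtype tumors. In gene trap tumors it held 0.193% to 0.518%, with replicate 1 the highest. Without gene trap replicate 2 the gene trap ranges were 10.6% to 11.7% for *Rpl7l1*, 9.39% to 10.5% for *Rpl22l1* and 94.8% to 95.6% for *Rps27l*, and that of *Rps4l* did not change.

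**Figure D5:**
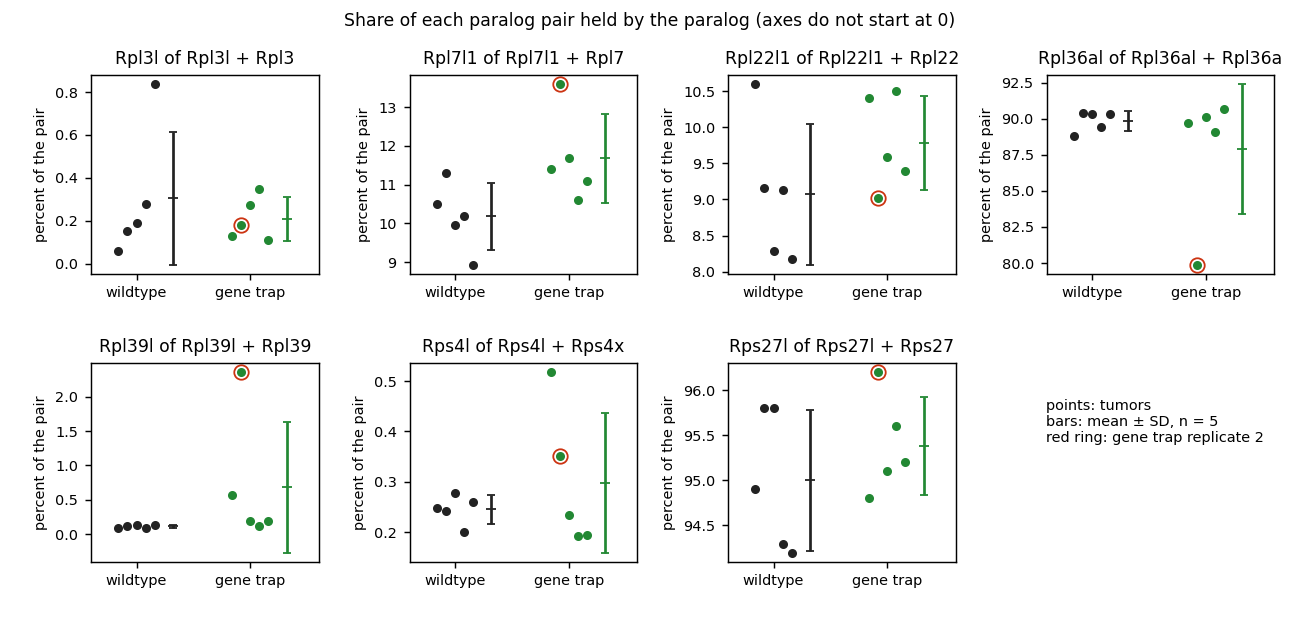
Percent of the summed value of a paralog and its partner held by the paralog (vertical axes, not from 0), for 7 pairs in wildtype (black) and gene trap (green) tumors, with mean ± SD (n = 5) beside the points and gene trap replicate 2 ringed in red. The ringed tumor is lowest for *Rpl36al* (79.9%) and highest for *Rpl39l* (2.36%), *Rpl7l1* (13.6%) and *Rps27l* (96.2%).

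Genes that work with the ribosome gave no call either. *Fau*, whose ribosomal protein is made as a fusion to a ubiquitin-like protein, and *Rack1*, on the small subunit head, had log2 fold changes of -0.02 and 0.00 (SE 0.12 and 0.10), and of -0.12 and 0.00 without gene trap replicate 2. Of 18 other TOP mRNAs, 10 were higher (median 0.02), and without gene trap replicate 2 14 were lower (median -0.03). In that tumor 8 of the 18 were above all others, with *Hnrnpa1* at a log2 deviation of 0.86 and *Npm1* at 0.51. Of 29 initiation factors 18 were higher (median 0.02), and of 17 chaperones and importers of ribosomal proteins 13 were higher (median 0.03). Without gene trap replicate 2 these counts were 15 (median 0.00) and 11 (median 0.01). In gene trap replicate 2, 22.4% of all genes tested were above all others and 21.8% below. There 10 of 29 initiation factors were above and 8 below, and 5 and 2 of 17 chaperones. None of these genes had an unadjusted p under 0.05, and the smallest were those of *Eif4a1* (0.191) and *Bysl* (0.202). The 152 tested rows with ribosomal -ps symbols had a median log2 fold change of -0.37, or -0.09 without gene trap replicate 2, in which 123 of them were below all others.

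Markers of other cell types are given beside these counts because fewer cells of a type and less RNA per cell cannot be told apart in whole tumors. Of 10 endothelial markers, 6 were below all other tumors in gene trap replicate 2, beside 21.8% of all genes tested. The 10 summed there to 3262 against 3497 to 6018. The sums of the 11 macrophage markers (18910 to 28270), 10 fibroblast markers (40850 to 123800) and 6 adipocyte markers (3915 to 13970) in that tumor lay inside the range of the others, as did the 12 lymphocyte markers (231.1 against 205.1 to 884.4). Their part in the values of the members was not tested.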

How the data were processed

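RNA-seq values of whole mammary tumors were analysed. STAR 2.7.8a, Partek, DESeq2 and the build mm39 are named in the submitters' processing notes; the annotation and counter are not given in the sources used here. The authors deposited estimated counts already normalized by median ratio, a signal per gene with 0 zeros and no recoverable reads, so depth is unknown and no count test was run. Of 16 columns, the names of 10 fit a tumor's label, and 6 named by animal number were not used. The labels do not say that tumors came from separate animals, so p-values measure only the spread between these samples.

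Symbols were found for 97.0% of gene IDs. Values were converted to log2 with a pseudocount of 1, on which scale changes of low genes are understated. Genes whose mean reached 10 were fitted with limma 3.58.1 (R 4.3.3), with group as the only factor and a variance trend, and p-values were adjusted by Benjamini-Hochberg over all genes tested. The fit was tested on simulated data. Coding sequences and transcript lengths are from GENCODE mouse release 21, and copies were found with BLAST+ 2.17.0.

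The members and lists were chosen with earlier results of these data known. Named genes are *Resf1*; the paralogs and partners; *Rpl22* and *Rpl27*; the 3 members with the smallest p in each direction; the 3 highest and 3 lowest in gene trap replicate 2; the 3 most abundant per subunit; the 3 with the largest and smallest SD; the P stalk and 5S genes, *Fau* and *Rack1*; and up to 4 genes of each other list. Alternatives were other filters and pseudocounts, columns scaled to equal totals, quantile normalization, no variance trend, a replicate block, each tumor left out, and sums with copies. A gene covered by the naming rule is not reported here.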

Additional observations from a re-analysis of the deposited data

Results flagged for a closer look

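In groups of 5 tumors, 23 values stood off from the others of their group by more than Dixon's 95% limit, out of 92 groups examined (46 measures). Chance alone gives about 1 in 20 groups, but many of these measures were named for their deviation in gene trap replicate 2, for a large SD or for a small p, and they are not independent, so the number of such values is no evidence in itself. Of the 23 values, 18 belong to gene trap replicate 2.

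Above the other gene trap tumors in that replicate were *Rpl39l* (165.3), *Rps29* (26287.8), *Rpl36a* (2732.2), *Rplp1* (46563.9), *Rplp2* (11844.2), *Rpl32* (35230.6), *Rps15* (33492.8), *Rps14* (40810.1) and *Rps9* (42762.2). Also above them were *Rpl22* (13716.7), *Rpl27* (1914.7), *Rpl36al* (10856.2), *Rps27l* (8894.0) and *Rps27* (352.1), and the percent of *Rpl39l* in its pair with *Rpl39* (2.36%). Below them were the copies *Rps3a3* (765.7) and *Rpl32l* (165.8) and the percent of *Rpl36al* in its pair with *Rpl36a* (79.9%).

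The other 5 values came from different tumors. *Rpl32l* reached 540.6 in wildtype replicate 2, while its group otherwise spanned 389.6 to 432.8. *Rack1* was 45284.4 in the same tumor. *Rps4l* was 111.9 in gene trap replicate 1, against 43.6 to 55.5. *Rpl3l* was 73.4 in wildtype replicate 5, and its percent in the pair with *Rpl3* was 0.838%.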

How the results depend on the processing

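No member passed an adjusted p under 0.05 under any alternative run. Several values that passed no test changed sign, among them the medians of the core genes without gene trap replicate 2 and the percent of *Rpl36al*. *Resf1* kept its direction, with unadjusted limma p of 0.075 (log2 fold change -0.25) for columns scaled to equal totals and 0.0544 (-0.22) without a variance trend; with each tumor left out the log2 fold change lay between -0.28 and -0.17. With equal totals, 28 members in gene trap replicate 2 were below all others instead of 16, and 39 above instead of 55. Summed with all copies found by sequence, an alternative chosen after seeing the data, the difference between groups was 1.55 percentage points for *Rpl22l1* and 1.53 for *Rpl36al*, against 0.71 and -1.95; with -ps rows added it was 2.03 for *Rpl36al*. The median log2 fold change of the core large subunit genes was -0.02 with -ps rows and -0.04 with all copies, and that of the small subunit genes 0.04 and 0.03. With each tumor left out it lay between -0.05 and 0.06 and between -0.06 and 0.14. The cause of these shifts was not tested.

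The replicate numbers did not pair the tumors: the mean correlation of same-numbered deviations was -0.00977, and 1 of 5 numbers correlated best with its own. With the replicate number as a block, 0 members passed an adjusted p under 0.05 and 3 of 89 (3.37%), in place of 1, had an unadjusted p under 0.05, beside 2.03% of all genes. *Rpl39l*, which passed the filter on the mean only through gene trap replicate 2 and is not counted as a result, is 1 of the 3. DESeq2 and edgeR, which need counts, could not be used. Unknown depth limits what can be said of *Rpl39l* and *Rpl3l*.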
